A study of Mus musculus with 10 samples.

Results

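The 40 genes described here encode enzymes, membrane proteins, proton pump subunits and regulators of the lysosome, and were chosen by name from the 35275 genes of the deposited expression table. All 40 were found, with 8 membrane proteins and channels, 10 proteases, 11 glycosidases and sulfatases, 7 enzymes and cofactors of lipid handling, 2 proton pump subunits and 2 transcription factors. The RNA sequenced came from epithelial cells isolated from the jejunum of 10 adult C57BL/6 mice labelled as male, all of the genotype VillinCreERT2;MYO5Bflox/flox, in which the villin promoter limits a tamoxifen-dependent Cre recombinase to the intestinal epithelium. The 3 control mice were given corn oil and stayed uninduced, so tamoxifen itself also separates them from the knockout mice. The 4 MYO5B-knockout mice received 2 mg of tamoxifen and a vehicle of albumin in buffer, and 3 further knockout mice received the same tamoxifen and lysophosphatidic acid (LPA) by intraperitoneal injection at 3 mg/kg. Cells were taken on day 4. The description of LPA-treated mouse 1 names both the vehicle and LPA, and the mouse was placed with the LPA-treated mice by its title.

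Lysosomes are acidic compartments in which hydrolases break down material delivered by endocytosis and autophagy. A proton pump in the membrane keeps the lumen acidic, most enzymes reach it from the Golgi by way of the mannose 6-phosphate receptors, and heavily glycosylated membrane proteins such as LAMP1 and LAMP2 line it. The transcription factors TFEB and TFE3 bind a short palindrome in the promoters of many of these genes. MYO5B moves recycling endosomes to the apical membrane of enterocytes, and cells that lack it are known to build up subapical vesicles and lysosomes, which is the reason to look at these genes together.

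The palindrome was searched on both strands from 250 bases before to 50 bases after the start site that RefSeq gives on the GRCm38.p6 build, and 35 of the 40 genes had such a promoter. Some genes had more than 1 promoter, with 41 for these 35 genes, and a gene was counted if any of its promoters held the letters. The 6 letters CACGTG occurred for 11 of the 35 genes (31.4%), against 8.09% of 27025 genes with a promoter and 11.3% of 10387 such genes tested here. The 8 letters TCACGTGA, which contain the shorter palindrome and form the core of the element bound by TFEB, occurred for 5 of the 35 (14.3%). The shares were 1.12% of all genes with a promoter and 2.03% of those tested. The matches are given below with the palindrome in capitals, read 5′ to 3′ on the strand of the gene. They are shown because they cover each of the 5 genes with the longer palindrome, and Lgmn and Ctsl, which differed most between the groups together with Gusb.
Atp6v0d1 (chr8:105566050-105566079, minus strand): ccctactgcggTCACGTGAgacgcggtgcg
Ctsa (chr2:164833749-164833778, plus strand): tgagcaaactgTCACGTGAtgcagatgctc
Ctsa (chr2:164833766-164833795, plus strand): gatgcagatgcTCACGTGAccagagctaca
Ctsd (chr7:142387908-142387937, minus strand): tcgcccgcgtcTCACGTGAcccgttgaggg
Gla (chrX:134601182-134601211, minus strand): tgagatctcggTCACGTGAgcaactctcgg
Gla (chrX:134601215-134601244, minus strand): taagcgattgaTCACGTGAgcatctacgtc
Mcoln1 (chr8:3500462-3500491, plus strand): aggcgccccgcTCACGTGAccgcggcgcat
Lgmn (chr12:102439124-102439153, minus strand): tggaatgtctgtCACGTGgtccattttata
Ctsl (chr13:64370739-64370768, minus strand): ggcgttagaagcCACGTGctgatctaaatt
Both Ctsa and Gla held the longer palindrome at 2 places, and Gusb held neither form. The shorter palindrome alone was also found in Gaa, Glb1, Lamp1 and Sgsh, with 4 copies in Lamp1. A match describes the letters of the window and does not show that a factor binds there.

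The reads assigned to genes numbered from 10949420 to 24470409 per library, so that 1 read on 1 kb of gene was worth 0.0409 to 0.0913 FPKM (fragments per kilobase, scaled to library size). Control mouse 2 and MYO5B-knockout mouse 3 gave gene-poor libraries, with 12242 and 12601 genes detected and 17.4% and 18.05% mitochondrial reads, against 17309 to 18267 genes and 1.98% to 3.50% elsewhere. Values without them are given beside those that they move most. Although the labels name males, 2 libraries (from MYO5B-knockout mouse 3 and mouse 1 of the LPA group) had Xist but 0 reads for 4 Y-linked genes. Myo5b gave 16.5, 32.0 and 26.1 FPKM in the control mice, 10.5, 12.2, 13.1 and 13.6 FPKM in the vehicle-treated knockouts and 11.7, 11.4 and 10.3 FPKM in the LPA-treated ones, so each knockout library lay below each control library. The epithelial markers Epcam, Cdh1, Krt8, Krt18, Krt19, Vil1, Cdx1 and Cdx2 were detected in every library.

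All 40 genes had a mean above 0.1 FPKM over the 10 libraries and were tested among 15729 genes by limma on log2(FPKM + 0.1), a scale that understates the changes of low genes. The 3 comparisons share their groups pairwise and are therefore not independent of each other. Fewer cells of a type and less RNA per cell cannot be told apart in these bulk samples, and the p-values measure the spread between individual mice.

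Compared with control mice, MYO5B-knockout mice had higher levels of Gusb (β-glucuronidase, which removes glucuronic acid from glycosaminoglycans) and Lgmn (legumain, an asparaginyl endopeptidase that also processes cathepsins), each about 4.3-fold. These were the 2 members of 40 that passed an adjusted p of 0.05, both higher, where 1.13% of all genes tested passed in that direction. None of the 40 passed in the lower direction, against 0.884% of all genes. Over all 40 members, 20 were higher and 20 lower in MYO5B-knockout mice, and the median of their log2 fold changes was 0.01, beside 63.4% of all genes tested that were higher, with a median of 0.29. Without MYO5B-knockout mouse 3 alone 25 of 40 were higher with a median of 0.34 (69.5% and 0.49 for all genes), and without both gene-poor libraries 22 of 40 with a median of 0.16 (60.8% and 0.21). Under median-ratio scaling of the libraries, the median of all genes was 0.04 and that of the members -0.28, with 16 members higher.

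LPA-treated MYO5B-knockout mice compared with control mice differed in 3 members, all higher: Lgmn, Gusb and Ctsl (cathepsin L, a cysteine endopeptidase). Of all genes tested, 1.54% passed in that direction and 0.776% in the lower one, in which no member passed. Here 32 of 40 members were higher with a median of 0.44, beside 69.5% and a median of 0.41 for all genes. Leaving out the gene-poor libraries, 23 of 40 were higher with a median of 0.22, beside 56.7% and 0.13 for all genes. There 7 members passed, beside 1346 of all 15729 genes tested in either direction, where 365 had passed with all libraries. Vehicle-treated knockouts do not enter these fold changes, so leaving out control mouse 2 alone necessarily gives the same 23 of 40 and the same median. They do enter the shared estimate of the spread, and 3 members passed without control mouse 2 alone. Under the same scaling the members that were higher numbered 21, with a median of 0.08 beside 0.10 for all genes.

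Between LPA-treated and vehicle-treated MYO5B-knockout mice no member passed an adjusted p of 0.05, and 0% of all genes tested did in either direction with limma, where 459 genes had an unadjusted p under 0.05. DESeq2 called 6 genes and no member. The members nevertheless lay mostly on the side of the LPA-treated mice: 37 of 40 were higher, with a median log2 fold change of 0.40, beside 60.7% and a median of 0.11 for all genes. Without the 2 gene-poor libraries 27 of 40 were higher, with a median of 0.16, while 41.5% of all genes were higher, with a median of -0.11. Without the 2 libraries that held Xist, 21 of 40 were higher, with a median of 0.05, beside 41.0% and a median of -0.18 for all genes. MYO5B-knockout mouse 3 belongs to both pairs. Control mice do not enter these fold changes, so leaving out mouse 3 alone gives the same 27 of 40 as leaving out both gene-poor libraries. Under median-ratio scaling 35 of 40 were higher, with a median of 0.32, beside 54.2% and a median of 0.04 for all genes.

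**Figure D1:**
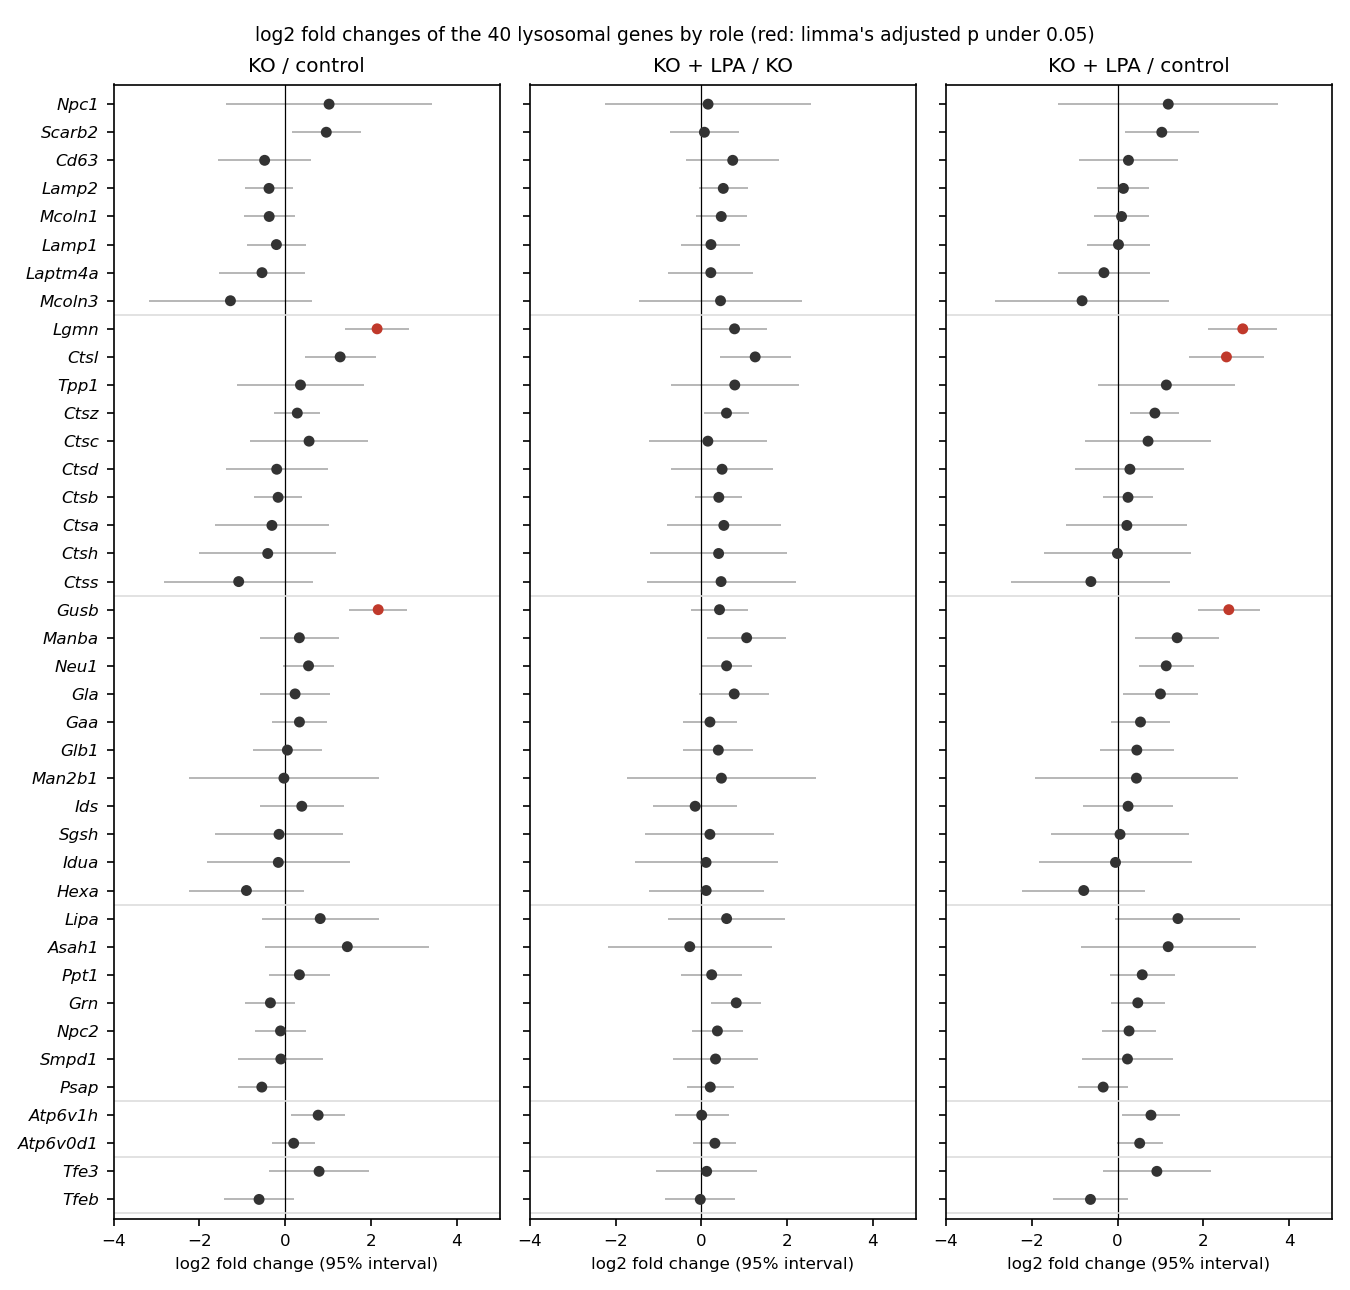
Each row is a lysosomal gene, grouped by role from membrane proteins at the top through proteases, glycosidases and sulfatases, lipid handling and the proton pump to the transcription factors, and each panel is a comparison. Points are limma's log2 fold changes of FPKM + 0.1 and lines their 95% intervals; red points passed an adjusted p of 0.05, which are Lgmn and Gusb in the first panel, none in the second, and Lgmn, Ctsl and Gusb in the third.

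Among the proteases, Lgmn (ENSMUSG00000021190, on GRCm38 at 102394084 to 102439813 of chromosome 12 in the deposited table) gave 23.6, 11.9 and 13.0 FPKM for control mice 2, 4 and 5. Vehicle-treated knockouts 3, 5, 6 and 7 had 92.6, 74.4, 52.6 and 60.2 FPKM, and LPA-treated mice 1, 4 and 5 had 91.2, 105.7 and 166 FPKM. Every knockout library, treated or not, lay above every control library, while LPA-treated mouse 1 lay just below MYO5B-knockout mouse 3. The means were 16.1 ± 6.46 FPKM (SD, n = 3), 69.9 ± 17.6 FPKM (SD, n = 4) and 121 ± 39.7 FPKM (SD, n = 3). The log2 fold change was 2.14 between MYO5B-knockout and control mice (SE 0.34; adjusted p = 0.0152, limma) and 2.92 between LPA-treated and control mice (SE 0.36; adjusted p = 0.00375, limma). Between LPA-treated and vehicle-treated knockout mice it was 0.77, with a 95% interval from 0.02 to 1.53 and an adjusted p of 1. The call against control mice was lost without control mouse 4, control mouse 5 or MYO5B-knockout mouse 5 (limma, adjusted p of 0.0752, 0.0957 and 0.0616), and without the 2 gene-poor libraries the log2 fold change was 2.31 (adjusted p = 0.0104, limma).

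Ctsl (ENSMUSG00000021477, at 64363214 to 64370306 of chromosome 13) gave 5.74, 10.8 and 14.0 FPKM in the control mice, 15.8, 34.5, 20.8 and 26.5 FPKM in the vehicle-treated knockouts and 44.4, 62.4 and 63.3 FPKM in the LPA-treated ones. The 3 groups did not overlap, with control mice lowest and LPA-treated mice highest. The log2 fold change between LPA-treated and control mice was 2.54 (SE 0.40; adjusted p = 0.0116, limma), and the means differed 5.57-fold. Each of the steps between was smaller, at 1.28 from control to MYO5B-knockout mice (adjusted p = 0.109, limma) and 1.26 from MYO5B-knockout to LPA-treated mice (95% interval 0.43 to 2.08, adjusted p = 1, limma), and neither passed. Without LPA-treated mouse 4 or 5 the adjusted p between LPA-treated and control mice was 0.0548 and 0.0699.

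Ctsz (cathepsin Z, a carboxypeptidase) had the highest mean of the proteases over the 10 libraries, although the mean of the control mice was higher for Ctsd (258 against 245 FPKM). Ctsz was at 271, 223 and 241 FPKM in control mice, 273, 304, 265 and 358 FPKM in the vehicle-treated knockouts, and 412, 522 and 416 FPKM in LPA-treated mice. The LPA-treated mice lay above all others. The log2 fold change to control mice was 0.87 (SE 0.26; adjusted p = 0.122, limma), and 0.94 without the 2 gene-poor libraries (adjusted p = 0.0375, limma). Nelfcd overlaps Ctsz on the opposite strand and holds 6.43% as many reads.

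Ctsd (cathepsin D, an aspartic protease) set the 2 gene-poor libraries apart from the rest of their groups. Its level was 485 FPKM in control mouse 2 and 431.6 FPKM in MYO5B-knockout mouse 3, against 139 and 148 FPKM in the other control mice, 165, 118 and 149 FPKM in vehicle-treated knockouts 5, 6 and 7, and 197, 267 and 346 FPKM in LPA-treated mice. The log2 fold change between LPA-treated and MYO5B-knockout mice was 0.48 (adjusted p = 1, limma), and 0.88 without the 2 libraries (adjusted p = 0.437, limma). Ctss (cathepsin S, which cleaves the invariant chain in antigen presentation) ranged from 23.1 to 117 FPKM in the control mice, 7.48 to 72.0 FPKM in the vehicle-treated knockouts and 32.0 to 59.2 FPKM in the LPA-treated ones, with overlap of all groups. The summed level of 5 antigen presentation genes (Cd74, H2-Aa, H2-Ab1, H2-Eb1 and Ciita) beside it was 2215 to 4521, 79.1 to 1517 and 177 to 376 FPKM, and its part in the level of Ctss was not tested. The other proteases, Ctsa (the protective protein of β-galactosidase and neuraminidase), Ctsb, Ctsc, Ctsh and Tpp1, had log2 fold changes between -0.41 and 0.56 in MYO5B-knockout against control mice, none of which passed. Fdft1 overlaps Ctsb on the opposite strand and holds 28.0% as many reads. The log2 fold change between LPA-treated and vehicle-treated knockout mice was above 0 for all 10 proteases, with a median of 0.50 and no call, although the mean FPKM of Ctsc was 22.7 in the former and 23.0 in the latter. Without the gene-poor libraries it was above 0 for 7 of the 10, with a median of 0.26.

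**Figure D2:**
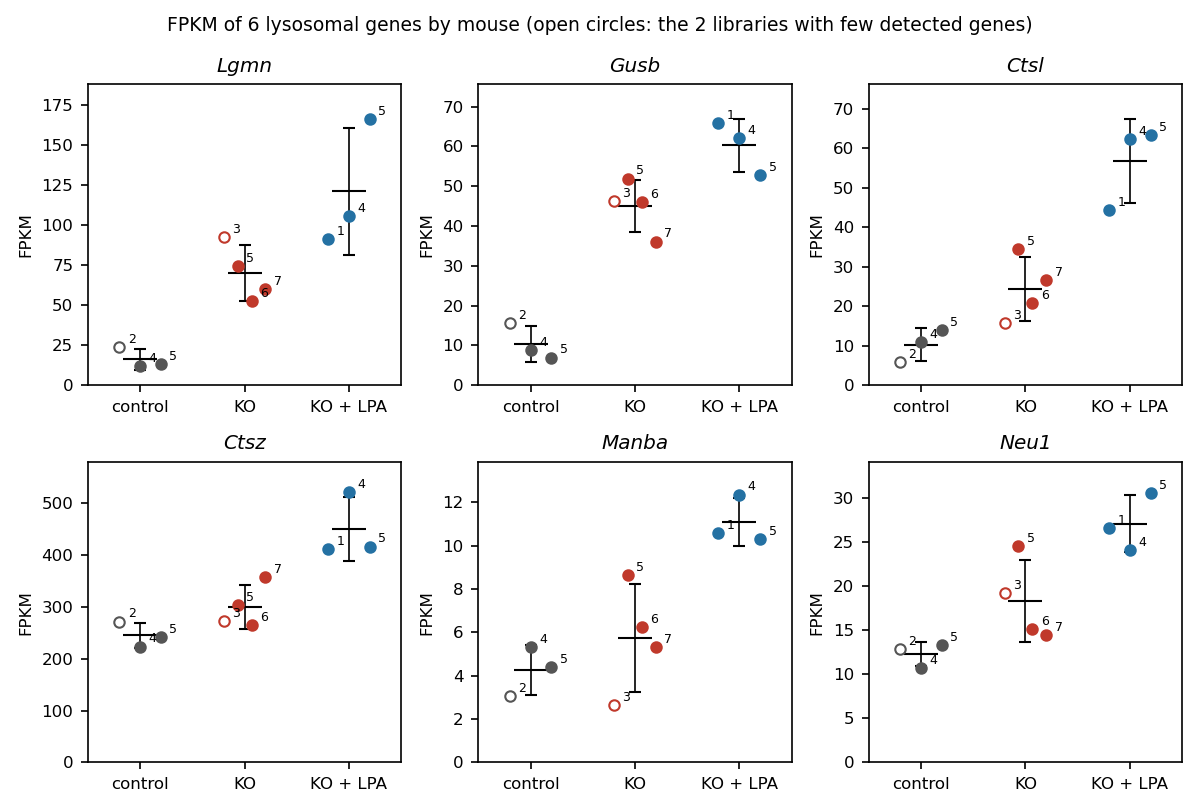
Each panel gives the FPKM of a lysosomal gene on a linear axis from 0, with a point for each mouse labelled by its number, and a bar for the mean with its SD (n = 3 control, 4 MYO5B-knockout, 3 LPA-treated). For Lgmn and Gusb the knockout mice of both treatments lie above the control mice, for Ctsl the 3 groups are separate, and for Ctsz and Manba only the LPA-treated mice lie apart from the others; open circles are control mouse 2 and MYO5B-knockout mouse 3.

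Among the glycosidases and sulfatases, which take sugars and sulfate groups off glycoproteins, glycolipids and glycosaminoglycans, Gusb (ENSMUSG00000025534, at 129989011 to 130003049 of chromosome 5) stood out. It gave 15.6, 8.87 and 6.93 FPKM in the control mice, 46.3, 52.0, 46.1 and 36.1 FPKM in the vehicle-treated knockouts and 65.8, 62.1 and 52.9 FPKM in the LPA-treated ones. No library of one group lay within the range of another. Means of 10.5 ± 4.53 FPKM (SD, n = 3), 45.1 ± 6.59 FPKM (SD, n = 4) and 60.3 ± 6.66 FPKM (SD, n = 3) gave a difference of 2.17 on the log2 scale of MYO5B knockouts from controls (SE 0.30; adjusted p = 0.00854, limma) and of 2.59 between LPA-treated and control mice (SE 0.32; adjusted p = 0.00383, limma). Between LPA-treated and vehicle-treated knockout mice it was 0.42, with a 95% interval from -0.25 to 1.10. Without control mouse 5 the adjusted p between MYO5B-knockout and control mice was 0.0545, and without the 2 gene-poor libraries the log2 fold change was 2.48 (adjusted p = 0.00373, limma).

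Manba (β-mannosidase) gave 3.06, 5.34 and 4.40 FPKM in the control mice, 2.63, 8.66, 6.26 and 5.32 FPKM in the vehicle-treated knockouts and 10.6, 12.4 and 10.3 FPKM in the LPA-treated ones. Neu1 (the lysosomal sialidase) was present at 12.9, 10.7 and 13.3 FPKM, at 19.2, 24.5, 15.1 and 14.4 FPKM, and at 26.5, 24.1 and 30.5 FPKM in the same order. The LPA-treated mice lay above all control mice for both genes, and MYO5B-knockout mice lay above the control mice for Neu1 alone. Against control mice the log2 fold changes of LPA-treated mice were 1.39 for Manba (adjusted p = 0.144, limma) and 1.13 for Neu1 (adjusted p = 0.0756, limma). Both passed without MYO5B-knockout mouse 3 (limma, adjusted p of 0.0418 and 0.0474), and without both gene-poor libraries (limma, adjusted p of 0.0336 and 0.0387). Mouse 3 is in neither group compared here, so leaving it out alone changes the shared estimate of the spread and not the fold changes.

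Sgsh (sulfamidase) and Ids (iduronate sulfatase), which both act on heparan sulfate, were among the 3 lowest members. Sgsh gave 0.686, 1.06 and 0.865 FPKM in the control mice, 0.210, 1.56, 1.12 and 0.804 FPKM in the vehicle-treated knockouts and 1.25, 0.345 and 1.55 FPKM in the LPA-treated ones. Ids gave 0.801, 1.57 and 1.42 FPKM, then 0.974, 2.09, 2.18 and 1.56 FPKM, and then 1.63, 1.34 and 1.43 FPKM in the same order. The groups overlapped for both. Card14 overlaps Sgsh on the opposite strand and holds 394% as many reads, Dgkq overlaps Idua with 755%, and Tmppe lies on the strand of Glb1 with 62.8%, and whether the counting used strand is not given in the sources used here. Hexa (the α subunit of β-hexosaminidase) was at 246 and 151 FPKM in the 2 gene-poor libraries and at 36.7 to 92.0 FPKM in the other 8. Man2b1 (α-mannosidase) was at 1.80 and 0.802 FPKM in these libraries and at 4.46 to 15.1 FPKM in the others, so the same libraries were high for one enzyme and low for another. The remaining members Gaa (acid α-glucosidase, which degrades glycogen), Gla (α-galactosidase A), Glb1 (β-galactosidase) and Idua (α-L-iduronidase) had log2 fold changes between -0.16 and 1.00 in the comparisons of either knockout group with control mice, without a call.

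**Figure D3:**
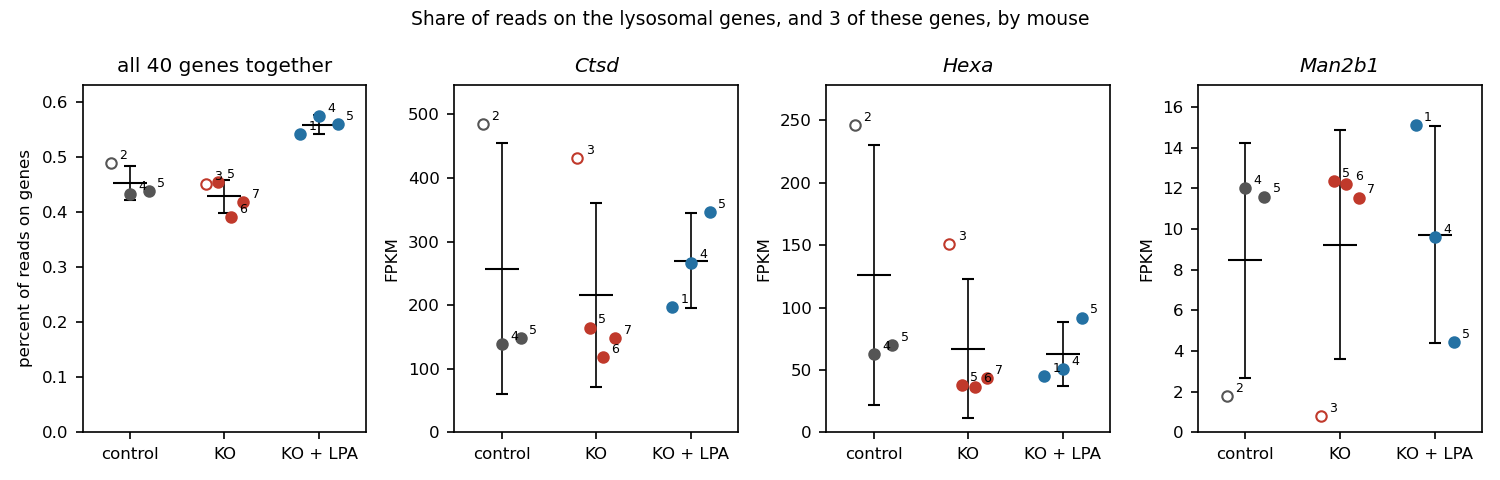
The first panel gives the percent of reads on genes that fell on the 40 lysosomal genes together, and the others the FPKM of Ctsd, Hexa and Man2b1, with a point for each mouse labelled by its number and a bar for the mean with its SD (n = 3, 4 and 3). The LPA-treated mice lie at 0.541% to 0.575%, above all others, while for Ctsd, Hexa and Man2b1 the open circles, control mouse 2 and MYO5B-knockout mouse 3, lie apart from the rest of their groups.

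The membrane proteins, which make up the limiting membrane or carry ions and lipids across it, included no member that passed in any comparison. Scarb2 (LIMP-2, the receptor that carries β-glucocerebrosidase to lysosomes) gave 18.5, 9.73 and 7.50 FPKM in the control mice, 22.9, 21.1, 23.6 and 19.0 FPKM in the vehicle-treated knockouts and 32.6, 15.1 and 23.7 FPKM in the LPA-treated ones. MYO5B-knockout mice lay above control mice (log2 fold change 0.96, SE 0.36; adjusted p = 0.206, limma), whereas LPA-treated mouse 4 lay below control mouse 2. Without the 2 gene-poor libraries the log2 fold change was 1.30 in MYO5B-knockout mice (adjusted p = 0.0613, limma) and 1.40 in LPA-treated mice (adjusted p = 0.0389, limma).

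Cd63, a tetraspanin of late endosomes and lysosomes, had the highest mean of the 40 genes. It gave 629, 289 and 329 FPKM in the control mice, 627, 277, 176 and 202 FPKM in the vehicle-treated knockouts and 294, 514 and 669.6 FPKM in the LPA-treated ones, with overlap of all groups. The table also lists a pseudogene, Cd63-ps, and reads of near-identical copies may be split between them. Lamp1 ranged from 138 to 306 FPKM over the 10 libraries and Lamp2 from 27.0 to 54.2 FPKM, and the means of both were lower in the knockouts given vehicle, by log2 fold changes of -0.20 and -0.38 that did not pass. Lamp2 was called lower in MYO5B-knockout mice by DESeq2 on recovered reads and not by limma. In this comparison DESeq2 called 1854 of all 15729 genes tested, and limma 316.

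Mcoln1 (TRPML1, the cation channel that releases lysosomal calcium) gave 10.1, 14.0 and 13.6 FPKM in the control mice, 9.34, 10.7, 10.3 and 8.32 FPKM in the vehicle-treated knockouts and 13.9, 15.6 and 10.9 FPKM in the LPA-treated ones. The LPA-treated mice lay above the vehicle-treated knockout mice (log2 fold change 0.46, 95% interval from -0.13 to 1.06). Mcoln3 (TRPML3), the lowest of the 40 genes, gave 0.182, 0.673 and 1.34 FPKM in the control mice, 0, 0.271, 0.442 and 0.208 FPKM in the vehicle-treated knockouts and 0.424, 0.754 and 0.0251 FPKM in the LPA-treated ones, and the groups overlapped. Laptm4a and Npc1 (the membrane protein that exports cholesterol) were low in the 2 gene-poor libraries, at 40.9 and 25.3 FPKM and at 0.0472 and 0.254 FPKM. For Npc1 the 95% interval of the log2 fold change between MYO5B-knockout and control mice ran from -1.37 to 3.43. 3110002H16Rik overlaps Npc1 on the opposite strand and holds 148% as many reads.

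Among the genes of lipid handling, Grn (progranulin, the precursor of the granulins) gave 37.5, 29.95 and 29.8 FPKM in the control mice, 23.3, 34.6, 21.4 and 24.1 FPKM in the vehicle-treated knockouts and 49.8, 49.9 and 36.0 FPKM in the LPA-treated ones. LPA-treated mice lay above vehicle-treated knockout mice (log2 fold change 0.81, 95% interval from 0.23 to 1.40), but the adjusted p was 1. Psap (prosaposin, the precursor of the saposins that present sphingolipids to their hydrolases) gave 203, 149 and 133 FPKM in the control mice, 109, 97.4, 102 and 132 FPKM in the vehicle-treated knockouts and 137, 109.6 and 134 FPKM in the LPA-treated ones. MYO5B-knockout mice lay below control mice for Psap, by less than 2 FPKM between the nearest mice (log2 fold change -0.54, SE 0.25; adjusted p = 0.288, limma).

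Lipa (lysosomal acid lipase) ranged from 7.68 to 25.2 FPKM in control mice, from 11.6 to 57.2 FPKM in MYO5B-knockout mice and from 23.8 to 63.7 FPKM in LPA-treated mice, and the log2 fold change of LPA-treated against control mice was 1.41 (95% interval -0.05 to 2.87). Asah1 (acid ceramidase) was at 0.849 FPKM in control mouse 2 and 4.81 FPKM in MYO5B-knockout mouse 3, below the other mice of each group. Npc2 (which hands cholesterol to NPC1), Ppt1 (which removes palmitate from proteins) and Smpd1 (acid sphingomyelinase) had log2 fold changes between -0.11 and 0.57 in the 3 comparisons. Ppt1 overlaps Cap1, whose reads are 524% of its own, on the opposite strand.

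Of the proton pump, Atp6v1h (subunit H of the cytosolic V1 part) gave 19.7, 34.3 and 32.8 FPKM in the control mice, 62.7, 50.8, 40.1 and 41.3 FPKM in the vehicle-treated knockouts and 42.5, 48.0 and 55.0 FPKM in the LPA-treated ones. Both knockout groups lay above the control mice, with log2 fold changes of 0.77 (adjusted p = 0.195, limma) and 0.78 (adjusted p = 0.234, limma). Leaving out the gene-poor libraries, these were 0.39 (adjusted p = 0.225, limma) and 0.52 (adjusted p = 0.117, limma). The difference between the knockout groups was 0.01, with a 95% interval from -0.62 to 0.64. Atp6v0d1 (subunit d of the membrane V0 part) ranged from 44.7 to 46.3 FPKM in the control mice, 45.2 to 58.1 FPKM in the vehicle-treated knockouts and 53.9 to 72.3 FPKM in the LPA-treated ones.

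The transcription factor Tfeb gave 8.08, 10.6 and 11.9 FPKM in the control mice, 4.99, 8.02, 5.79 and 8.06 FPKM in the vehicle-treated knockouts and 6.74, 4.02 and 9.93 FPKM in the LPA-treated ones. Its relative Tfe3 was present at 1.39, 6.05 and 4.91 FPKM, at 3.59, 7.58, 7.80 and 6.47 FPKM, and at 8.92, 7.45 and 4.41 FPKM in the same order. The values of MYO5B-knockout and control mice did not overlap for Tfeb, but the nearest mice, at 8.06 and 8.08 FPKM, were almost level, and those of Tfe3 overlapped. The log2 fold changes of MYO5B-knockout against control mice were -0.61 (adjusted p = 0.43, limma) for Tfeb and 0.79 (adjusted p = 0.476, limma) for Tfe3. The activity of these factors is set largely by their location in the cell, which RNA levels do not show.

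The 11 members with CACGTG in the promoter had median log2 fold changes of 0.05 for MYO5B-knockout against control mice, 0.46 between LPA-treated and vehicle-treated knockout mice, and 0.45 between LPA-treated and control mice. The 24 members whose promoter lacked it had medians of -0.06, 0.40 and 0.35. Both sets contained genes that passed, with Lgmn and Ctsl in the first and Gusb in the second, and the difference between the sets was not tested.

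Counting the genes for which the libraries of the groups did not overlap, 7 members were higher in MYO5B-knockout than in control mice (Scarb2, Ctsl, Lgmn, Gaa, Gusb, Neu1 and Atp6v1h), that is 7 of 40 beside 11.0% of all genes tested, and 2 were lower (Psap and Tfeb) beside 6.20%. In LPA-treated against vehicle-treated knockout mice 7 were higher (Lamp2, Mcoln1, Ctsl, Ctsz, Gusb, Manba and Grn), beside 3.56% of all genes, and 0 were lower, beside 0.604%. In LPA-treated against control mice 11 were higher (Ctsl, Ctsz, Lgmn, Gaa, Gla, Gusb, Manba, Neu1, Ppt1, Atp6v0d1 and Atp6v1h), beside 20.5%, and 0 were lower, beside 6.38%. Gusb and Ctsl were in all 3 sets.

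Per length, the levels of the 40 genes spanned from a mean of 401 FPKM for Cd63 over the 10 libraries, followed by 329 FPKM for Ctsz and 245 FPKM for Ctsd, to 1.499, 0.945 and 0.431 FPKM for Ids, Sgsh and Mcoln3. Cd63, Ctsz and Ctsd overlapped in their ranges over the libraries, as did Ids, Sgsh and Mcoln3, so the order within each set of neighbours is not larger than the spread between mice. The 40 genes together took 0.432% to 0.488% of the reads in control mice, 0.391% to 0.454% in MYO5B-knockout mice and 0.541% to 0.575% in LPA-treated mice. The LPA-treated mice thus lay above all others, and the 3 most abundant members of each library held 37.5% to 56.2% of the summed FPKM.

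**Figure D4:**
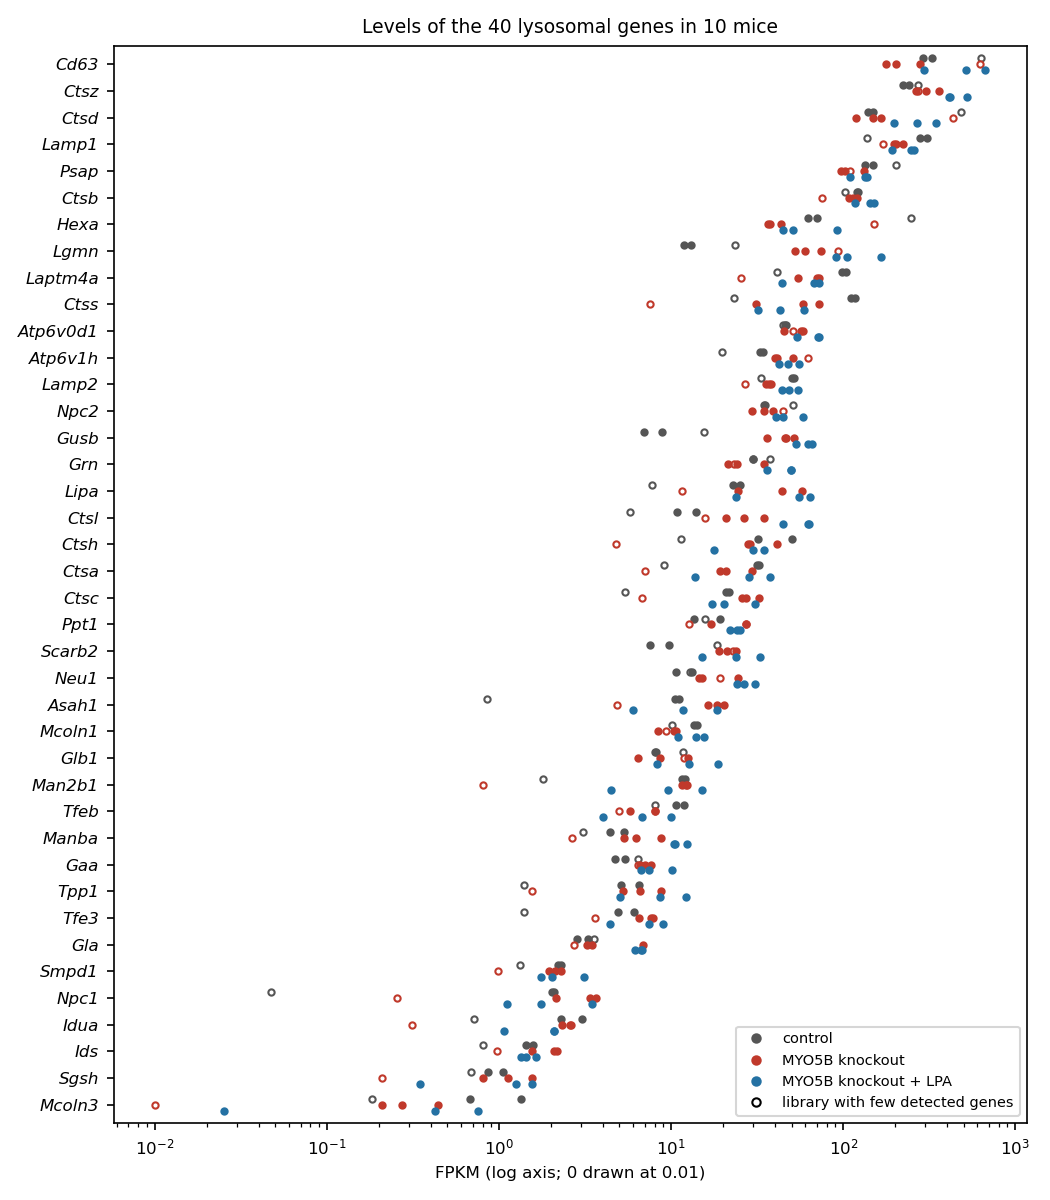
Each row is a lysosomal gene, ordered by its mean over the 10 libraries, and each point is a mouse, placed by FPKM on a log axis. Control, MYO5B-knockout and LPA-treated mice are drawn on 3 lines within each row, and open circles are the 2 gene-poor libraries, which lie high for Cd63, Ctsd and Hexa and low for Asah1, Man2b1, Npc1 and Idua.

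Other genes of the pathway were grouped by role in the same way. Of 27 further lysosomal hydrolases tested, 0 rose and 1 fell between MYO5B-knockout and control mice, and the same numbers held between LPA-treated and control mice, with Ctsw (cathepsin W, a protease of cytotoxic lymphocytes) as the gene in both. Ctsw was present at 9.12 to 13.0 FPKM in the control mice, 0.890 to 4.21 FPKM in the vehicle-treated knockouts and 0.548 to 1.501 FPKM in the LPA-treated ones, with log2 fold changes of -2.75 (adjusted p = 0.0381, limma) and -3.33 (adjusted p = 0.0198, limma) against control mice. The summed level of 8 T lymphocyte markers (Ptprc, Cd3e, Cd3g, Cd8a, Itgae, Gzma, Gzmb and Cd7) moved with it, from 326 to 456 FPKM in control mice to 13.2 to 133 and 22.3 to 39.7 FPKM in the knockout groups, all 8 markers being lower, and its part in the level of Ctsw was not tested.

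No gene passed in any comparison among 19 further lysosomal membrane proteins, 15 further proton pump subunits, 22 genes of sorting to lysosomes, 16 genes of mTORC1 and its regulators at the lysosome (among them the Lamtor, Rrag, Flcn, Fnip and Tsc genes), and 19 autophagy genes. For MYO5B-knockout against control mice, the median log2 fold change was -0.02 for the further hydrolases (12 of 27 higher), -0.21 for the membrane proteins (6 of 19) and 0.16 for the proton pump (12 of 15). It was 0.46 for the genes of sorting (18 of 22), 0.41 for those of mTORC1 (12 of 16) and 0.13 for autophagy (13 of 19), beside 0.29 and 63.4% higher for all genes. Between LPA-treated and vehicle-treated knockout mice the median was 0.07 for the further hydrolases (16 of 27 higher). For the membrane proteins it was 0.38 (16 of 19) and for the proton pump 0.29 (14 of 15). It was 0.16 for sorting (13 of 22), 0.22 for mTORC1 (15 of 16) and 0.14 for autophagy (15 of 19). All genes had a median of 0.11 with 60.7% higher, and the gene-poor libraries are included. Of 5 endocytic genes typical of lysosome-rich enterocytes, 2 were higher and 3 lower when MYO5B knockouts were set against controls, with a median of -1.47. Amn (amnionless, the membrane partner of cubilin) fell in MYO5B-knockout mice, from 247, 107 and 180.5 FPKM in control mice to 52.3, 22.9, 26.3 and 34.3 FPKM (log2 fold change -2.38, adjusted p = 0.0178, limma). In LPA-treated mice it was present at 38.1, 66.3 and 71.8 FPKM, which did not pass against either group.

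Lysosomal genes are also expressed by other cells that an epithelial preparation can hold. Of 12 macrophage and dendritic cell markers 11 were in the table, and their summed level was 22.4 to 90.1 FPKM in the control mice, 16.6 to 42.1 FPKM in the vehicle-treated knockouts and 36.4 to 92.7 FPKM in the LPA-treated ones. The sums of 90.1 and 42.1 FPKM were those of the gene-poor libraries, in which C1qa alone gave 67.9 and 29.2 FPKM. The other control mice had sums of 22.4 and 27.1 FPKM, and the other vehicle-treated knockouts 20.9, 16.6 and 21.3 FPKM. C1qa also gave 48.6 FPKM in LPA-treated mouse 5. By log2 fold change all 11 were higher in LPA-treated than in vehicle-treated knockout mice, with a median of 1.19 and no call. So were 37 of the 40 lysosomal genes, and 27 without the 2 gene-poor libraries, without which the markers were not counted. The mean of Itgam was nevertheless 1.55 FPKM in LPA-treated and 1.87 FPKM in vehicle-treated knockout mice, of which mouse 3 had 0.0951 FPKM. Lyz2, a lysozyme of these cells, was present at 4.26 to 5.59, 0.916 to 2.24 and 5.75 to 15.3 FPKM, Cd68 was at 0 in control mouse 2 and MYO5B-knockout mouse 3, Itgam was at 0 in the former and Itgax in the latter. The summed level of 8 stromal and endothelial markers was 4.32 to 7.45, 3.05 to 5.43 and 6.27 to 13.0 FPKM, and all 8 were higher in LPA-treated than in vehicle-treated knockout mice. Goblet cell markers were higher in the same comparison in 7 of 7 cases (median 0.64), with sums of 6458 to 10607 FPKM in the vehicle-treated and 10653 to 19904 FPKM in the LPA-treated knockouts. Those of Paneth cells were higher in 0 of 6 (median -1.29; sums of 3501 to 6088 and 1057 to 4024 FPKM) and those of proliferating cells in 0 of 8 (median -0.46). The part of these cells in the levels of Ctsl, Ctsz, Grn or Manba was not tested. Between MYO5B-knockout and control mice, where Gusb and Lgmn rose, 5 of the 11 macrophage and dendritic cell markers were higher and 6 lower, with a median of -0.63. The summed level of 12 enterocyte markers in the same comparison was 32104 to 41990 FPKM in control mice and 14888 to 27273 FPKM in the vehicle-treated knockouts. Of these markers 9 were lower and 3 higher (Alpi, Apoa4 and Mttp), with Lct as the only call. The sum of 8 markers of proliferating cells was 85.1 to 119 and 194 to 317 FPKM, with all 8 higher. The part of enterocytes or proliferating cells in the levels of Gusb and Lgmn was not tested.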

How the data were processed

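The authors deposited a table of FPKM for 35275 genes in 10 libraries, with Ensembl identifiers, symbols and coordinates on GRCm38. The submitters' processing notes name TopHat, STAR 2.5, HTSeq 0.6.1 and DESeq2 with the builds GRCm38 and mm10, without saying which step used which. No scaling between libraries is stated. FPKM multiplied by gene length are whole multiples of a single step in every library, which gives the reads. Of the deposited read counts checked, 63 of 63 equalled them. These counts were of vehicle-treated and LPA-treated knockout libraries, and no control library was checked. The deposited gene set enrichment files and the columns of fold changes and p-values hold the authors' own comparisons and were not used.

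The 15729 genes whose mean reached 0.1 FPKM entered a single limma (3.58.1, R 4.3.3) model of the 3 groups on log2(FPKM + 0.1), with a trended variance, two-sided tests and Benjamini-Hochberg adjustment over all genes. The code was tested on simulated data. Alternatives were pseudocounts of 1 and 0.01, no filter or a mean of 1 FPKM, scaling by the median of ratios, quantile normalization, leaving out each mouse, and edgeR (4.0.16) and DESeq2 (1.42.0) on the recovered reads. Leaving out the libraries that held Xist was added after seeing the data. The lysosomal genes and all lists were chosen with earlier results of these data known, so no list was tested as a set. Values in every mouse are given for members that passed, for the 6 with the lowest unadjusted p in each comparison, for the 3 highest and 3 lowest, and for Tfeb, Tfe3, Mcoln1 and Mcoln3. Hexa, Man2b1 and other members shown by range were chosen after their values were seen. Intervals cover 95%. Promoters are those of RefSeq on GRCm38.p6. Figures were drawn with Python 3.11.15. Protein sequences were not used here.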

Additional observations from a re-analysis of the deposited data

Results flagged for a closer look

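In a group of 4 samples, a mouse was singled out where its gap to the nearest other mouse took up more of the group's range than Dixon's critical value at 95% allows. Among the MYO5B-knockout mice, the only group large enough, this was the case for 4 of the 40 genes. Chance does so for about 1 in 20 groups. The 40 genes were measured in the same 4 mice and are not independent, so their count cannot be judged by that rate. In each case the mouse was MYO5B-knockout mouse 3, whose library detected few genes. It was the highest of the 4 for Ctsd, at 431.6 FPKM, and for Hexa, at 151 FPKM. It was the lowest for Idua, at 0.310 FPKM, and for Man2b1, at 0.802 FPKM. Control mouse 2, the other gene-poor library, lay on the same side of its group for all 4 genes, at 485, 246, 0.717 and 1.80 FPKM. None of the 4 genes passed in any comparison.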

How the results depend on the processing

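The number of members called between MYO5B-knockout and control mice, 2 of 40, was 1 under median-ratio scaling (Gusb), 0 with edgeR (adjusted p = 0.0558 for Gusb and 0.0862 for Lgmn), 4 with DESeq2 (Gusb, Ctsl, Lgmn and, lower, Lamp2) and 0 to 2 with a mouse left out, with 0 without control mouse 5 and 1 without control mouse 4 or MYO5B-knockout mouse 5. The 4 of 40 members called by DESeq2 stand beside 1854 of all 15729 genes tested. Between LPA-treated and control mice the 3 calls became 7 without the 2 gene-poor libraries and 2 to 5 with a mouse left out, with 5 without MYO5B-knockout mouse 3 and 2 without LPA-treated mouse 4 or 5. The median log2 fold change of the members in this comparison was 0.0319 with edgeR and -0.00967 with DESeq2. Between LPA-treated and vehicle-treated knockout mice 0 members were called under every alternative. Over all genes, the 316 calls between MYO5B-knockout and control mice became 188 without a filter, 598 under median-ratio scaling, 804 after quantile normalization, 778 without the 2 libraries, 1854 with DESeq2 and 44 to 403 with a mouse left out. The 365 between LPA-treated and control mice became 626 after quantile normalization, 1346 without the 2 libraries, 1503 with DESeq2 and 73 to 702 with a mouse left out, and the 0 between the knockout groups became 6 with DESeq2. The cause of these changes was not tested. Only control and LPA-treated mice share 2 numbers (4 and 5), and same-numbered mice did not deviate together (r = 0.10 and -0.36 across genes). With the replicate block on these 4 mice, 0 members and 0 genes were called (adjusted p = 0.155 for Lgmn, Gusb and Ctsl), and likewise 0 and 0 on the same mice without it.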
